A study of Mus musculus with 8 samples.

Results

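The activator protein 1 (AP-1) family and its stress-response relatives were followed in early reprogramming of mouse embryonic fibroblasts (MEFs), as the 9 genes Fos, Fosb, Fosl1, Fosl2, Jun, Junb, Jund, Atf3 and Maff. The genes were chosen by symbol from the 18990 genes of the expression table, and each symbol matched a single row. C57/BL6 wild-type MEFs carried lentiviral tet-STEMCCA (a doxycycline-inducible cassette with Oct4, Sox2, Klf4 and Myc) and rtTA, and were transfected with 40 nM of a pool of 3 siRNAs against Ncor1 (siNcor1) or Oct4 (siOct4, gene Pou5f1). In all 4 groups the cells were in doxycycline medium with LIF, ascorbic acid, an Alk5 inhibitor and CHIR, a GSK3 inhibitor. Total RNA depleted of ribosomal RNA was sequenced at day 3 and day 6, with 2 biological replicates for each siRNA and day and 8 libraries in all. No group without a targeting siRNA was analysed here, so each difference between siRNAs is between a pair of knockdowns.

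AP-1 is a dimer of basic leucine zipper (bZIP) proteins. JUN proteins pair with each other or with FOS proteins, FOS proteins need a JUN partner, and ATF3 and the small MAF protein MAFF, which lacks a transactivation domain, belong to neighbouring bZIP branches. Serum and stress switch on FOS and JUN genes through MAP kinases and serum response factor. In fibroblasts AP-1 occupies many active enhancers, and in reprogramming it is known as a guard of the fibroblast state whose sites close as the cells leave it.

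The windows of 250 bases before the annotated start are shown for the genes that passed the test in at least 1 comparison, so that the elements through which AP-1 and ATF proteins can act on their own genes can be read. They come from RefSeq (build GRCm38.p6), which had an entry for 8 of the 9 genes and 10 starts among them, with no entry for Fosl1. Of the 3 starts of Maff only the second, which holds the full CRE named below, is shown. Capitals mark a CRE-like motif, and each line runs 5′ to 3′ on the gene's own strand, toward the start.
Fosl2 (chr5:32136222-32136471, plus strand): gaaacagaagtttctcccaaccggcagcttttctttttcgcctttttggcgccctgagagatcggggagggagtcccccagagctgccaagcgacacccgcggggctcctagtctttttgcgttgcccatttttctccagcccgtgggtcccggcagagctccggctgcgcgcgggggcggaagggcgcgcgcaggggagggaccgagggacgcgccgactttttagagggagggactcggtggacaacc
Jun (chr4:95052223-95052472, minus strand): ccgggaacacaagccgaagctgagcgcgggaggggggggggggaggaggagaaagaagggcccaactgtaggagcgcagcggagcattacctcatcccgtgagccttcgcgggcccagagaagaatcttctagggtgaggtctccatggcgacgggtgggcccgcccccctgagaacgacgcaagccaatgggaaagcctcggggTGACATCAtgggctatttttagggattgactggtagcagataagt
Atf3 (chr1:191183334-191183583, minus strand): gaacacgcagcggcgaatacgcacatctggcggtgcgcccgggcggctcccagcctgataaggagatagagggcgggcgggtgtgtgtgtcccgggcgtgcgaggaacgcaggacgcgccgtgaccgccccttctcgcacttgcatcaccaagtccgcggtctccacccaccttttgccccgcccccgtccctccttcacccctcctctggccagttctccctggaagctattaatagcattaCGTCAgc
Maff, second start (chr15:79347270-79347519, plus strand): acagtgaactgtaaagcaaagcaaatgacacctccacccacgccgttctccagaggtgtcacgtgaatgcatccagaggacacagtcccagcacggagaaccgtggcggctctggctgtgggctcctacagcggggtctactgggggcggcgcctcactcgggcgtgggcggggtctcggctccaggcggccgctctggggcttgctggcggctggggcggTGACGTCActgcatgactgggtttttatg

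Both strands of every window were searched for TGAGTCA (the TPA response element, the classical AP-1 site), TGACGTCA (the cAMP response element, CRE), its first part TGACG, TGACATCA and the CArG box of serum response factor. Jun carried TGACATCA from 45 to 38 bases before its start, a motif found in 2.93% of the 32851 mouse windows. The second Maff start had the full CRE from 29 to 22 bases upstream (1.55% of windows), within which TGACG lies on both strands, and the Maff start after it had TGACATCA from 45 to 38 bases upstream. TGACG, present in 17.8% of windows, stood in Fos from 129 to 125 and from 66 to 62 bases upstream, in Fosb from 60 to 56 and in Junb from 106 to 102. On the other strand it stood in Atf3 from 7 to 3 and in the third Maff start from 122 to 118. TGAGTCA (4.46% of windows) and the CArG box (1.47%) were in 0 of the 10 windows, and Fosl2 and Jund held none of the motifs searched. The first Maff start, the one at the annotated gene boundary, held none of them either. A match is only a match of letters, and sites outside these windows of 250 bases were not searched. The RefSeq start lies 671 bases from the gene boundary used for the table's annotation for Fosl2, 1210 for Jund and 34706 for Atf3. For Maff the second start lies 899 bases from that boundary and the third 1781.

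Each library held 7735742 to 16445192 reads on genes, the shallowest being replicate 2 of siOct4 at day 3. The non-coding transcript Gm26917 took 15.5% to 16.6% of reads at day 3, 20.3% to 21.7% in siNcor1 at day 6 and 23.9% to 29.1% in siOct4 at day 6. Ncor1, the target of one siRNA pool, stood at 7.08 and 7.20 log2-cpm (the log2 of counts scaled to library size) in siNcor1 at day 3 against 7.82 and 7.94 in siOct4, and at 7.26 and 7.28 against 7.33 and 7.13 at day 6. At day 6 the siRNAs thus overlapped, and Ncor1 was not lower in the libraries labelled siNcor1. Pou5f1, the target of the other, stood at 7.53 and 7.62 in siOct4 at day 3 against 7.63 and 7.68 in siNcor1, and at 9.45 and 8.97 against 7.55 and 7.32 at day 6, so its mRNA goes against the label siOct4 at day 6 and is not lower beyond the spread at day 3. Below, siOct4 therefore stands for the libraries labelled siOct4, and every direction between siRNAs rests on that label. The study describes the knockdown of Oct4 as short-lived, since the cassette overexpresses it, and no library before day 3 was analysed here. Sox2, Klf4 and Myc, which share the cassette with it, were also higher in the libraries labelled siOct4 at day 6, by 1.63, 1.67 and 1.59 on the log2 scale. Whether these mRNAs came from the cassette or from the cells' own genes was not told apart. The 10 fibroblast markers, headed by Col1a1, Fn1 and Vim, summed to 10920 to 11270 CPM in siNcor1 and 14180 to 16550 in siOct4 at day 3, and to 7432 to 7815 and 4251 to 4269 at day 6. In siNcor1 the fall of the sum came with Col1a1, Col1a2, Fn1 and Vim. The means of Col3a1 (791 to 1174 CPM), Thy1 (205 to 448), Pdgfra, Pdgfrb, Postn and Twist2 were higher there at day 6. At day 3 Pdgfra went against the sum, at 85.2 CPM in siNcor1 and 71.8 in siOct4. Macrophage and blood markers (4 of 5 in the table) summed to 6.27 to 12.8 CPM over the 8 libraries and endothelial ones (4 of 4) to 16.4 to 44.3. The endothelial sum was almost all Tek, at 41.25 of a mean of 42.48 CPM in siNcor1 at day 3 and 16.04 of 16.71 in siOct4 at day 6. Epithelial markers (6 of 6) had mean sums of 56.5 and 16.8 CPM at day 3 and of 676 and 304 at day 6 in siNcor1 and siOct4. The list of late pluripotency markers (6 of 6) summed to at most 7.61 CPM at day 3. At day 6 it summed to 87.7 to 90.2 in siNcor1 and 38.5 to 45.1 in siOct4. The list includes Sall4, which the study uses as an early marker. Sall4 gave 6.605 of a mean of 7.604 CPM in siNcor1 and 2.212 of 2.547 in siOct4 at day 3. At day 6 it gave 34.66 of 88.96 and 21.35 of 41.83.

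All 9 genes passed the filter of a mean of at least 1 CPM, which left 13866 genes. Per kilobase of exon, the level of Fosl2 was first in both groups at day 3, at 37.5 CPM per kb in siNcor1 and 45.3 in siOct4, ahead of Junb at 31.9 and 36.8. The first 2 overlapped between replicates in siNcor1 and did not in siOct4. At day 6 Junb stood first, at 40.2 CPM per kb in siNcor1 and 32.5 in siOct4, and Fosl2 had moved behind Jun (29.8) in siNcor1 and behind Jun and Fosl1 (15.4) in siOct4, where its range touched that of Jund. Per kilobase of the longest transcript, an alternative added after the data were seen, Fosl2 at day 6 stood instead ahead of Jun, at 44.2 against 32.2 CPM per kb in siNcor1, and in siOct4 at 22.8 against 22.2 for Jun and 22.0 for Fosl1, where the ranges overlapped. Jun and Fosl1 took the places around them and overlapped each other in both siOct4 groups. Jund came next in all 4 groups, at 9.34 to 16.3 CPM per kb, and Maff (4.60 to 6.45), Fos (2.92 to 3.38) and Atf3 (1.77 to 4.14) followed. Fosb was lowest in every group, at 0.262 to 0.343 CPM per kb and 13 to 29 reads a library, so its changes are the least precise.

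**Figure D1:**
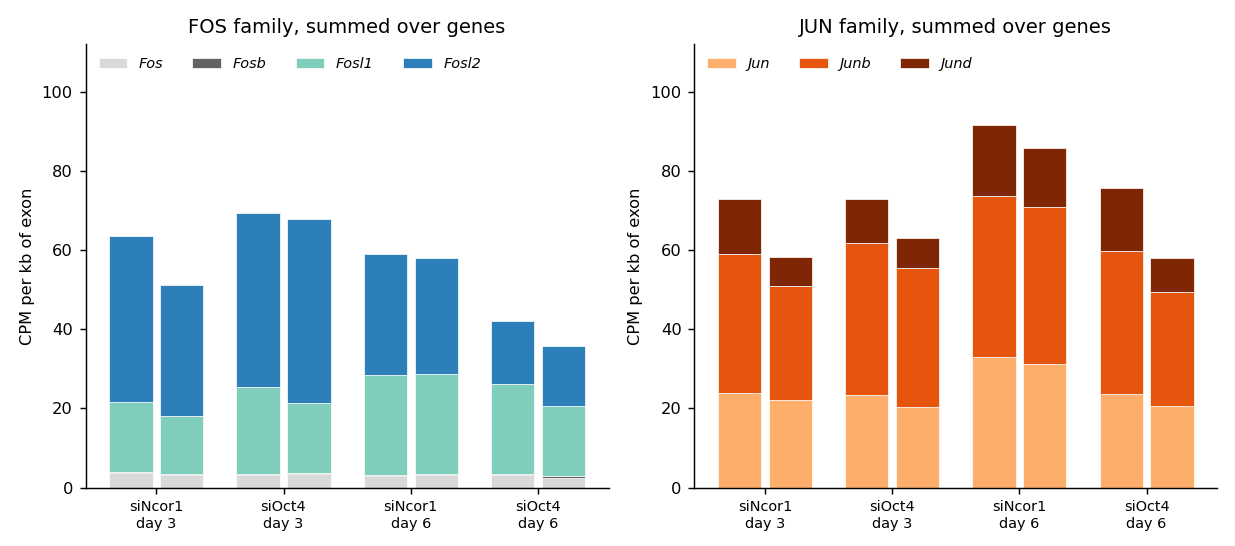
Level per kilobase of exon (CPM per kb) of the FOS genes (left) and the JUN genes (right), stacked by gene, with 1 bar per library and the 2 replicates of a group side by side. The FOS sum is lowest in siOct4 at day 6, at 35.7 and 42.0, with the smallest Fosl2 segments, and the JUN sum is highest in siNcor1 at day 6, at 85.8 and 91.5.

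The makeup of the FOS family changed with time. The FOS genes together stood at 57.4 ± 8.8 CPM per kb (SD, n = 2) in siNcor1 and 68.7 ± 1.1 in siOct4 at day 3, and at 58.5 ± 0.66 and 38.9 ± 4.5 at day 6. Fosl2 made up 65.3% ± 0.97 of that sum in siNcor1 and 66.0% ± 3.6 in siOct4 at day 3, and 51.0% ± 0.95 and 39.9% ± 3.5 at day 6. Fosl1 supplied 28.3% and 28.8% at day 3 and 43.4% and 51.7% at day 6. For both genes the shares in each day 6 group lay outside the range of the same siRNA at day 3. In siOct4 the level of Fosl1 overlapped between the days, at 22.1 and 17.6 CPM per kb at day 3 and 22.7 and 17.6 at day 6, so that its larger share there went with the lower Fosl2. With the length of the longest transcript in place of all exons, an alternative added after the data were seen, Fosl2 held 71.6%, 72.3%, 58.4% and 47.1% in the same order of groups, and the order of Fosl1 and Fosl2 in siOct4 at day 6 turned over (Fosl1 at 45.02%). The JUN family kept the order Junb, Jun, Jund in all 4 groups, with Junb at 45.3% to 54.2%, Jun at 32.2% to 36.3% and Jund at 13.6% to 18.4% of the JUN sum.

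**Figure D2:**
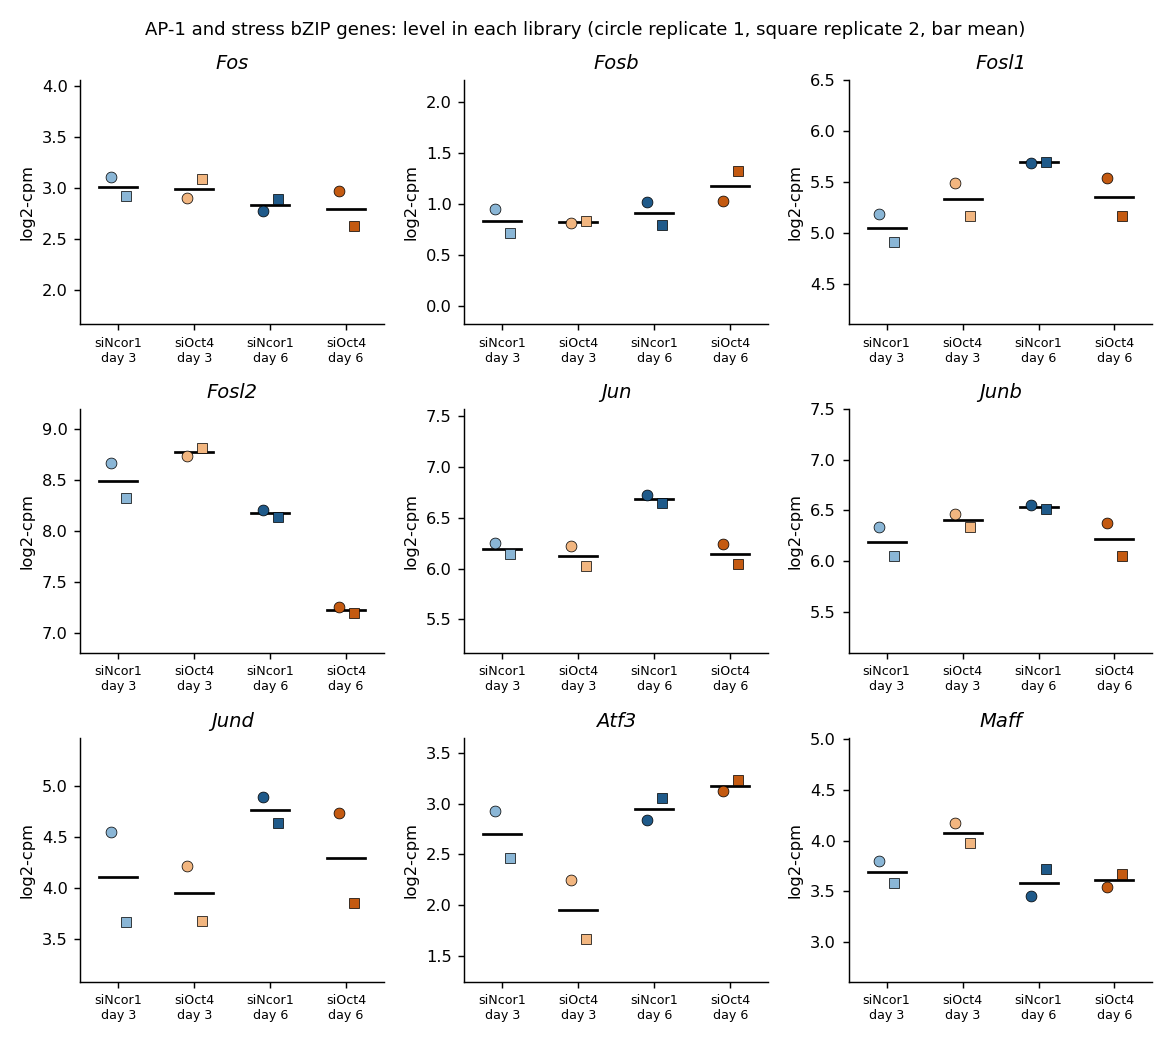
Level of each of the 9 genes in log2-cpm in the 8 libraries, with circles for replicate 1, squares for replicate 2, a bar at the group mean and a span of 2.4 log2 units on every axis. Fosl2 at 7.19 and 7.25 in siOct4 at day 6 lies below all its other libraries, and Jun at 6.64 and 6.72 in siNcor1 at day 6 lies above all its others.

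Between the siRNAs, 0 of the 9 genes passed the test at day 3 and 2 at day 6. At day 3 limma called 0 of 9 with an adjusted p under 0.05, where 1.07% of all tested genes were called. Atf3 (log2 fold change −0.74) and Maff (0.38) had an unadjusted p under 0.05 there, beside 1460 of all 13866 tested genes. Among the 9 genes, voom on the recovered reads also called 0. At day 6 Fosl2 and Jun were lower in siOct4 and 0 were higher, 2 of 9, beside 30.7% of all genes called (18.6% lower). From day 3 to day 6 in siNcor1, Fosl1 and Jun rose, 2 of 9, beside 34.8% of all genes (13.8% higher). From day 3 to day 6 in siOct4, Atf3 rose and Fosl2 and Maff fell, 3 of 9, beside 52.7% of all genes. The difference between siRNAs changed from day 3 to day 6 for Fosl2 alone, 1 of 9, beside 20.7% of all genes (7.77% upward and 12.9% downward). The replicates of the 2 groups compared did not overlap for 4 of the 9 genes between siRNAs at day 3 (43.4% of all genes), 6 at day 6 (64.7%), 6 over time in siNcor1 (73.1%) and 4 in siOct4 (74.8%). In the fit reported here the share of the 9 genes called was below that of all genes in each of the 5 tests. Under other settings that order turned at day 6, over time in siNcor1 and for the change between days, most widely at day 6 without replicate 1 of siOct4 at day 6, where 5 of 9 passed beside 28.8% of all genes. With a replicate block it turned over time in siNcor1 (4 of 9 beside 37.6%) and for the change (3 of 9 beside 24.5%). Their median log2 difference between siOct4 and siNcor1 was −0.01 at day 3, against −0.02 over all genes, and −0.32 at day 6, against −0.03.

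**Figure D3:**
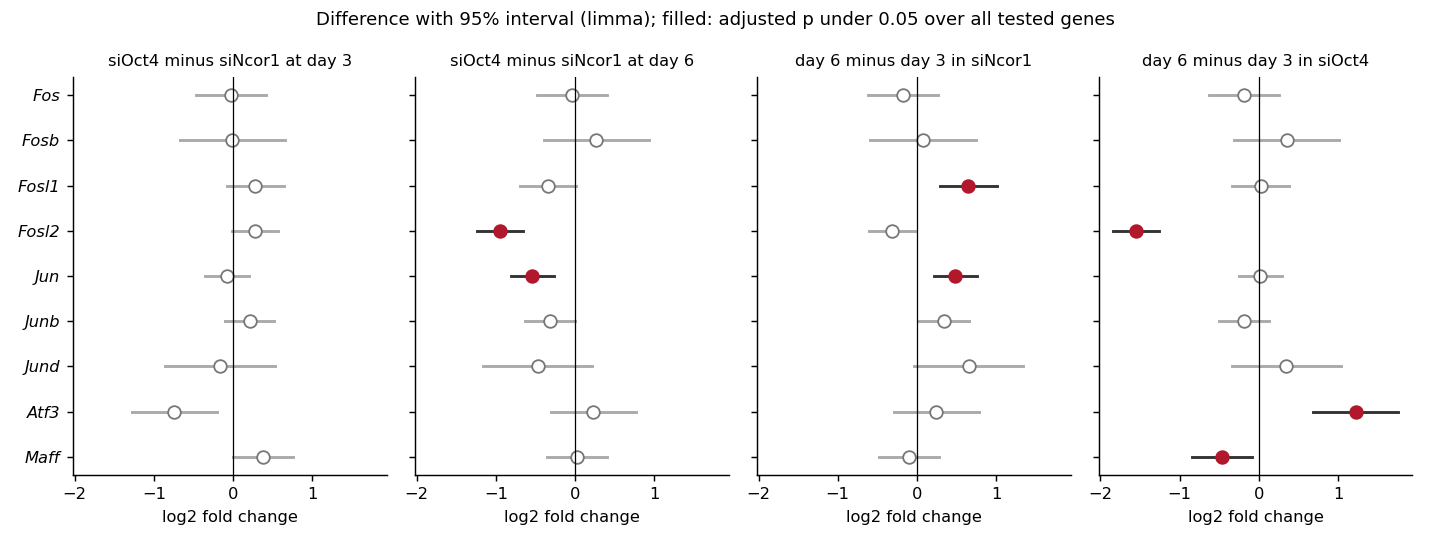
Log2 fold change of each of the 9 genes in the 4 comparisons, with the 95% interval of the limma fit and filled points where the adjusted p over all tested genes was under 0.05. Filled are Fosl2 and Jun between siRNAs at day 6, Fosl1 and Jun over time in siNcor1, and Fosl2, Atf3 and Maff over time in siOct4, with Fosl2 at −1.55 the longest distance from 0.

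Fosl2 codes for FRA2, a FOS protein without the transactivation domain of FOS itself, and lies at chr5:32135801-32157842 (mm10, plus strand). It stood at 8.67 and 8.32 log2-cpm in siNcor1 and 8.74 and 8.82 in siOct4 at day 3, and at 8.20 and 8.14 and at 7.25 and 7.19 at day 6. The 2 libraries of siOct4 at day 6 were the lowest of the 8, while at day 3 both siOct4 libraries lay above both siNcor1 libraries. At day 6 Fosl2 was 1.93-fold lower in siOct4 (log2 fold change −0.95, SE 0.13, adjusted p = 6.6e-04). At day 3 the difference was 0.28 (95% interval −0.01 to 0.57, adjusted p = 0.499). The change of that difference between the days was −1.23 (SE 0.19, adjusted p = 0.00157). In siOct4 Fosl2 fell 2.93-fold from day 3 to day 6 (log2 fold change −1.55, SE 0.13, adjusted p = 3.9e-06), and in siNcor1 the fold change was −0.32 (SE 0.13, adjusted p = 0.0808). Over the 8 fits that each left out a library, the day 6 difference stayed between −0.98 and −0.92 with an adjusted p of at most 0.0112. In the same day 6 libraries, the mean of each of the 10 fibroblast markers was lower in siOct4, and their part in the result was not tested. In bulk RNA, fewer cells of a type and less RNA per cell cannot be told apart.

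Fosl1, at chr19:5447547-5455946 (plus strand), codes for FRA1, the other FOS protein that lacks the transactivation domain. Its log2-cpm was 5.18 and 4.91 in siNcor1 and 5.49 and 5.16 in siOct4 at day 3, and 5.69 and 5.70 and 5.53 and 5.17 at day 6. Both day 6 libraries of siNcor1 lay above every other library. Fosl1 rose 1.57-fold from day 3 to day 6 in siNcor1 (log2 fold change 0.65, SE 0.16, adjusted p = 0.00995), while in siOct4 the fold change was 0.02 (95% interval −0.33 to 0.38). The rise was past the threshold in 5 of the 8 fits without a library, and not without replicate 2 of siNcor1 at day 3 (adjusted p = 0.109) or without replicate 1 or 2 of siNcor1 at day 6 (adjusted p = 0.0587 and 0.0557). At day 6 the siOct4 libraries lay under those of siNcor1, at −0.34 with an adjusted p of 0.135. Over the fits without a library that difference ran from −0.52 (adjusted p = 0.0334, without replicate 1 of siOct4 at day 6) to −0.16 (adjusted p = 0.493). Fosl1 overlaps in part with Ccdc85b (chr19:5453180-5457894) on the opposite strand. As the strand setting of the counting was not stated, reads in the shared stretch cannot be told apart.

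Fos (chr12:85473890-85477273, plus strand), the prototype immediate-early gene, was low in all libraries. Its values were 3.11 and 2.92 log2-cpm in siNcor1 and 2.90 and 3.09 in siOct4 at day 3, and 2.77 and 2.90 and 2.97 and 2.62 at day 6. All groups of Fos overlapped between the siRNAs, and the fitted difference was −0.02 (95% interval −0.46 to 0.42) at day 3 and −0.04 (−0.48 to 0.41) at day 6. Fosb (chr7:19302696-19310051, minus strand), another immediate-early FOS gene, ranged from 0.72 to 1.33 log2-cpm. Between siRNAs its 95% intervals ran from −0.67 to 0.66 at day 3 and from −0.40 to 0.93 at day 6. Over time they ran from −0.59 to 0.74 in siNcor1 and from −0.31 to 1.02 in siOct4. All of them cover 0 and are wide at this depth.

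Jun, at chr4:95049034-95052222 (minus strand), codes for the transactivating JUN partner. Jun stood at 6.25 and 6.14 log2-cpm in siNcor1 and 6.22 and 6.02 in siOct4 at day 3, and at 6.72 and 6.64 and at 6.24 and 6.04 at day 6. Only the siNcor1 libraries of day 6 stood apart, above the other 6. Jun rose 1.40-fold from day 3 to day 6 in siNcor1 (log2 fold change 0.48, SE 0.13, adjusted p = 0.0115) and did not pass in siOct4 (0.02, 95% interval −0.25 to 0.30). At day 6 it was 1.45-fold lower in siOct4 than in siNcor1 (log2 fold change −0.54, SE 0.13, adjusted p = 0.00853). Both results rest on the same pair of libraries. Without replicate 1 of siNcor1 at day 6 the adjusted p was 0.0624 for the day 6 difference and 0.0923 for the rise, without replicate 2 of that group it was 0.0543 for the day 6 difference, and without replicate 2 of siNcor1 at day 3 it was 0.0950 for the rise. The change of the siRNA difference between the days was −0.46 (SE 0.18, adjusted p = 0.0857). Jun overlaps the antisense transcript Junos.

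Junb (chr8:84974484-84978718, minus strand), a JUN protein that activates more weakly than JUN at many sites, was the highest JUN gene per length. It measured 6.33 and 6.05 log2-cpm in siNcor1 and 6.47 and 6.34 in siOct4 at day 3, and 6.55 and 6.51 and 6.38 and 6.05 at day 6. The siOct4 libraries lay above those of siNcor1 at day 3 and below them at day 6. The differences were 0.21 (adjusted p = 0.716) at day 3 and −0.32 (adjusted p = 0.114) at day 6, and their change was −0.53 (SE 0.20, adjusted p = 0.0846). Over the fits without a library the day 6 difference ran from −0.48 (adjusted p = 0.0246, without replicate 1 of siOct4 at day 6) to −0.15 (adjusted p = 0.441). Junb overlaps Prdx2 on the opposite strand.

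Jund (chr8:70698949-70700616, plus strand), the JUN gene that is usually expressed without a stimulus, had the widest gaps between replicates of the JUN genes. Its log2-cpm was 4.56 and 3.67 in siNcor1 and 4.22 and 3.68 in siOct4 at day 3, and 4.89 and 4.64 and 4.74 and 3.86 at day 6. A replicate lay up to 0.89 from its partner, and the siRNA groups overlapped on both days. The differences were −0.16 (95% interval −0.85 to 0.52) at day 3 and −0.47 (−1.16 to 0.22) at day 6. Over the fits without a library the latter ran from −0.91 (adjusted p = 0.0402, without replicate 1 of siOct4 at day 6) to −0.032 (adjusted p = 0.947).

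Atf3 (chr1:191170296-191218039, minus strand), a stress-induced bZIP factor that represses as a homodimer, was the gene of the 9 with the greatest rise. It stood at 2.93 and 2.47 log2-cpm in siNcor1 and 2.25 and 1.67 in siOct4 at day 3, and at 2.84 and 3.05 and at 3.12 and 3.23 at day 6. Both siOct4 libraries were lowest at day 3 and highest at day 6. In siOct4 Atf3 rose 2.33-fold (log2 fold change 1.22, SE 0.25, adjusted p = 0.00146), and in siNcor1 the fold change was 0.25 (95% interval −0.29 to 0.79). At day 3 the difference between the siRNAs was −0.74 (SE 0.25, adjusted p = 0.235), and its change to day 6 was 0.97 (SE 0.35, adjusted p = 0.0684). The shallowest library gave the lowest value, from 24 reads, and without it the rise in siOct4 was 0.93 and still passed.

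Maff (chr15:79346621-79359076, plus strand) codes for a small MAF protein that pairs with CNC and BACH factors at antioxidant elements. Maff had 3.80 and 3.58 log2-cpm in siNcor1 and 4.17 and 3.97 in siOct4 at day 3, and 3.45 and 3.72 and 3.54 and 3.68 at day 6. The siOct4 libraries of day 3 were the highest, without overlap with any other group. Maff fell 1.38-fold from day 3 to day 6 in siOct4 (log2 fold change −0.46, SE 0.17, adjusted p = 0.0406). The fall was lost in 7 of the 8 fits that left out a library, with adjusted p up to 0.212 without replicate 1 of siOct4 at day 3, and after 3 other scalings of the libraries. At day 3 the difference between siRNAs was 0.38 (95% interval 0.0035 to 0.76, adjusted p = 0.464).

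Around the 9 genes, genes in 9 lists (partners, kinases and phosphatases, related early genes and targets) were read in the same fits. Of the genes known as AP-1 targets, 1 of 16 tested at day 3 was higher in siOct4 and 0 lower (0.375% and 0.692% of all genes), with a median log2 fold change of 0.43 against −0.02 over all genes. At day 6, 10 of 16 were lower and 0 higher (18.6% and 12.1% of all genes), with a median of −0.69 against −0.03. The chemokine gene Ccl2 was 2.54-fold higher at day 3 (1.35, adjusted p = 0.00880), and the collagenase gene Mmp13 and the cytokine gene Il11 were 2.56-fold and 2.18-fold lower at day 6 (−1.35, adjusted p = 0.00552, and −1.12, adjusted p = 0.0479). The difference between siRNAs changed downward from day 3 to day 6 in 11 of the 16 genes (12.9% of all genes), with Ccl2 at −2.39 and Il11 at −1.97. Without any 1 of the 4 libraries of day 3, the day 3 call of Ccl2 was lost, with adjusted p up to 0.131. In the other 8 lists limma called 0 of 79 tested genes at day 3, where 9 had an unadjusted p under 0.05 and voom called 1. Over all genes, 1460 of 13866 had an unadjusted p under 0.05 at day 3, and voom called 1.18%. The fibroblast marker sum was likewise higher in siOct4 at day 3 and lower at day 6, and its part in these counts was not tested.

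**Figure D4:**
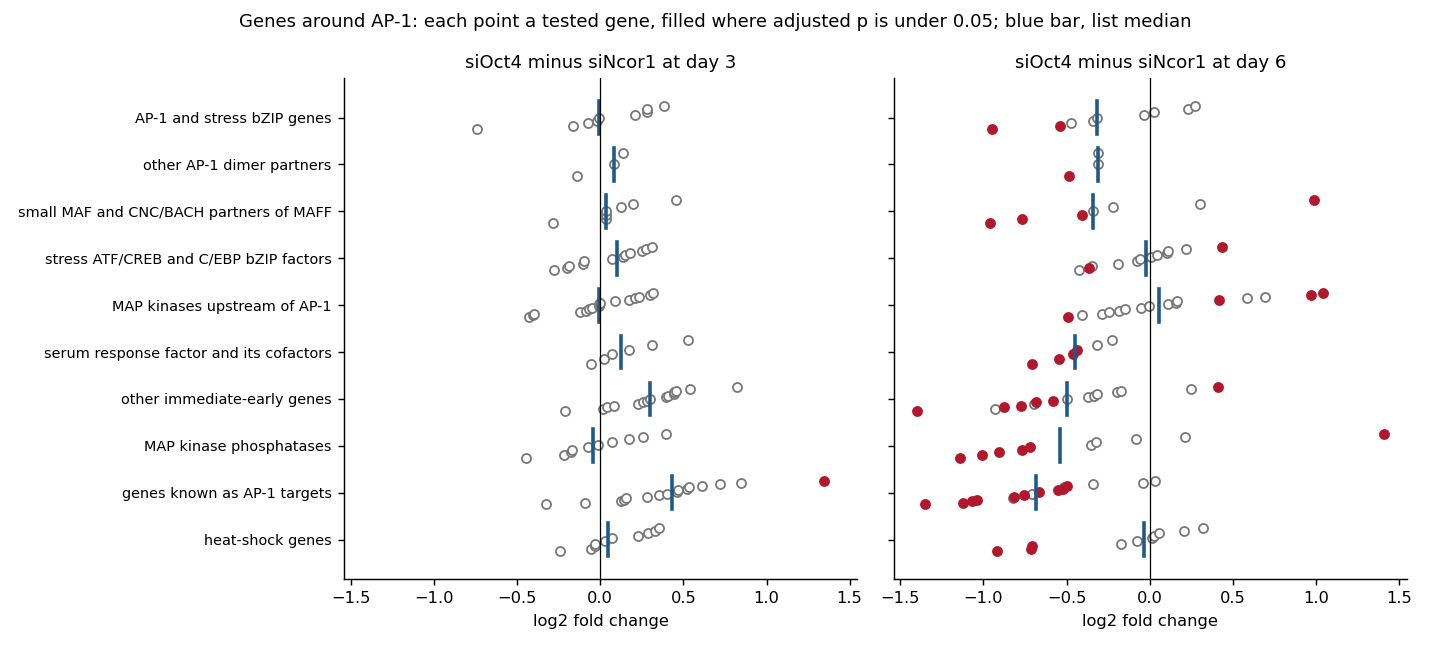
Log2 fold change between siOct4 and siNcor1 at day 3 (left) and day 6 (right), with 1 point per tested gene, filled where the adjusted p was under 0.05, and a blue bar at the median of each list. The median of the AP-1 target list lies at 0.43 at day 3 and −0.69 at day 6, with 1 and 10 filled points of 16.

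Other immediate-early genes, which share the serum response with Fos, had 5 of 15 lower and 1 higher at day 6 (18.6% and 12.1% of all genes). Their median was 0.30 at day 3 and −0.50 at day 6. Klf6 was 2.63-fold lower in siOct4 at day 6 (log2 fold change −1.40, adjusted p = 2.0e-04). Zfp36, which codes for a protein that destabilises AU-rich mRNAs, was 1.835-fold lower (−0.88, adjusted p = 0.00369), while Ier2 was higher (0.41, adjusted p = 0.0382). Of serum response factor and its cofactors, 4 of 6 were lower in siOct4 at day 6, with Elk3 at −0.71 and Elk1 at −0.54, and 6 of 6 fell from day 3 to day 6 in siOct4 (30.5% of all genes fell), with Mkl1, the actin-regulated cofactor, at −1.39 and Srf at −0.98. In siNcor1 2 of 6 fell over time (20.9% of all genes), Elk4 at −0.68 and Mkl1 at −0.40.

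MAP kinases upstream of AP-1 had 3 of 16 higher and 1 lower in siOct4 at day 6 (12.1% and 18.6% of all genes). Higher were Mapk11, a p38 kinase, at 1.04 (adjusted p = 0.00841) and Map2k6, a kinase that activates p38, at 0.97 (adjusted p = 0.00859). Mapk3, which codes for ERK1, was lower at −0.49 (adjusted p = 0.0246). Over time Mapk13 rose in both siRNAs (1.40 in siNcor1 and 2.39 in siOct4) and Map2k4, which acts on JNK, fell in both (−0.86 and −1.14). The MAP kinase phosphatases, which switch these kinases off, had 5 of 10 lower and 1 higher at day 6 (18.6% and 12.1% of all genes). Dusp5 was lowest at −1.14 (adjusted p = 7.5e-04), followed by Dusp10 at −1.01 (adjusted p = 0.00885), and Dusp2 was higher at 1.41 (adjusted p = 0.0181). Dusp6, a phosphatase of ERK, rose over time in both siRNAs, by 1.20 in siNcor1 and 0.61 in siOct4, and Dusp1 fell in siOct4 by 1.11 on the log2 scale.

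The CNC and BACH partners of MAFF had 3 of 7 lower and 1 higher at day 6, where 18.6% of all genes were lower and 12.1% higher, shares that stand beside each count of day 6 below. Bach1, a repressor of heme and antioxidant genes, was lower in siOct4 by 0.96 on the log2 scale (adjusted p = 4.6e-04), Nfe2l2, the antioxidant regulator NRF2, by 0.77 (adjusted p = 0.00296), and Nfe2l3 was higher at 0.99 (adjusted p = 0.00255). Among 12 stress ATF, CREB and C/EBP factors 1 was higher, Atf4 at 0.43 (adjusted p = 0.0215), and 1 lower, Xbp1 at −0.36 (adjusted p = 0.0400). The other dimer partners had 3 tested genes, of which Atf7 was lower (−0.49, adjusted p = 0.0407). Heat-shock genes had 3 of 10 lower, with Hspb1 at −0.92 and Bag3 at −0.71. Of the list genes named at day 6, Klf6, Zfp36, Elk3, Dusp5, Bach1, Nfe2l2, Nfe2l3 and Bag3 kept the call in all 8 fits without a library. Ier2 lost it in 7 of these fits, Il11 in 6, Atf7 in 4, Atf4, Dusp2 and Mapk3 in 3 and Hspb1 in 2. Xbp1 lost it on leaving out each library of day 3 and each of siNcor1 at day 6. Without replicate 2 of siNcor1 at day 6 the calls of Mmp13 (adjusted p = 0.0693), Elk1 (0.131), Mapk11 (0.102), Map2k6 (0.0932) and Dusp10 (0.0957) were lost, and those of Atf4, Atf7, Dusp2, Hspb1, Ier2, Il11, Mapk3 and Xbp1 were lost without that or other libraries.

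In siNcor1 over time, 9 of the 16 tested AP-1 target genes rose and 3 fell (13.8% and 20.9% of all genes). Mmp3, the stromelysin gene, rose by 3.75 and Spp1, osteopontin, by 3.15 on the log2 scale, while Il6 fell by 1.84 and Plau, the urokinase gene, by 1.23. In siOct4 4 rose and 6 fell (22.2% and 30.5% of all genes), with Mmp3 at 2.46, Spp1 at 2.19, Plau at −2.91 and Il6 at −2.89. Il6 was very low at day 6, with means of −0.78 log2-cpm in siNcor1 and −1.30 in siOct4. The lowest value of any gene was −2.87, so the sizes of both falls of Il6 are imprecise. Of the related early genes, 8 of 15 fell and 1 rose in siOct4, with Klf6 at −1.50 and Nr4a3 at −1.45. In siNcor1 2 rose and 0 fell, Ptgs2 (cyclooxygenase 2) at 0.94 and Ier2 at 0.40. The difference between siRNAs changed from day 3 to day 6 in 5 of the 15, all downward (12.9% of all genes). The kinases had 3 of 16 higher and 5 lower in siNcor1 and 3 higher and 6 lower in siOct4, and the phosphatases 3 of 10 higher and 2 lower in siNcor1 and 2 higher and 5 lower in siOct4. Of the CNC and BACH partners, 2 of 7 rose and 1 fell in siNcor1 and 1 rose and 4 fell in siOct4, with Nfe2l3 higher in both (0.98 and 1.84) and Bach2 lower in both (−0.998 and −0.937). The stress ATF, CREB and C/EBP factors were split, with 3 of 12 higher and 3 lower in siNcor1 and 3 higher and 4 lower in siOct4, Crem rising in both (0.80 and 1.02) and Creb1 falling in both (−0.92 and −0.71). Atf2, a JUN partner, fell in both as well (−0.56 and −0.73), among 1 and 2 lower of 3 dimer partners. Heat-shock genes had 1 of 10 higher and 1 lower in siNcor1 and 1 higher and 3 lower in siOct4, with Hsp90aa1, a chaperone, higher in both (0.77 and 0.94). Of the list genes named over time, calls in siNcor1 were lost without single libraries for Ier2 in 6 of 8 fits (adjusted p up to 0.213), Mkl1 in 4 (0.158), Crem in 2 (0.130), Hsp90aa1 in 2 (0.0992), Atf2 in 1 (0.0575) and Bach2 in 1 (0.0568), and those in siOct4 passed in all 8.

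Setting the reads of Gm26917 aside when libraries were scaled moved the median of all genes over time in siOct4 from −0.08 to 0.05, and the share of calls that were higher from 42.1% to 52.6%. Fosl2 fell and Atf3 rose under that scaling too, and Maff did not pass (adjusted p = 0.129).

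Likeness was measured as the root mean square difference of log2-cpm, each gene centred on its own mean, over the 8 libraries. The tested genes nearest to Fosl2 were Ddr1, a collagen receptor, at 0.0646 and Cdc42ep1 at 0.0660, where the median tested gene lay at 0.619. Nearest to Jun was Pbx2 at 0.0453, and to Fosl1 Snx21 at 0.0716. For Atf3 it was Wdr27 at 0.118, for Maff P4ha1 at 0.0876 and for Junb Tmem63b at 0.0571. The median tested gene lay at 0.422 from Jun, 0.446 from Fosl1, 0.60 from Atf3, 0.365 from Maff and 0.385 from Junb. Jund had no close neighbour, the nearest being Cebpb at 0.175. Fos, Fosb and Junb varied little themselves (SD 0.158, 0.194 and 0.192). Their nearest genes, Gm42929 at 0.0560, Xrcc3 at 0.0544 and Tmem63b, are therefore genes that varied little as well. With 8 libraries in 4 groups, genes that share a group pattern rank high by this measure.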

How the data were processed

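RNA from the 8 libraries was aligned by the authors with STAR 2.5.2b and summarised with edgeR 3.20.9 (versions per the labels), and the deposited values are log2-cpm per gene. The program that counted reads and its strand setting were not given in the sources used here. The constant added before the logarithm (0.136 CPM) and the value of 1 read were read from the table, and 100% of values came out as whole reads within 0.1 read, which gave the library totals. Gene positions came from GENCODE (mm10, 18969 of 18990 genes matched).

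The deposited log2 values were fitted with limma 3.58.1 (R 4.3.3), with the 4 groups in 1 model, a variance trend, genes of at least 1 CPM on average (13866) and Benjamini-Hochberg adjustment over all of them at 0.05. The 95% intervals are those of the fit. With 2 replicates a group no permutation test of single genes can reach the threshold, and counts limit precision by read number. Replicates differed by more than read sampling (a chi-square of 8.44 to 18.7 for each degree of freedom), so all 8 libraries were kept as separate samples. The fit was also run on simulated counts, with a single setting of the spread between replicates for all genes and no replicate effect. That run therefore gives no error rates for these libraries.

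The 9 genes and the 9 surrounding lists were chosen with earlier results of these data known, and a gene of the AP-1 target list is not reported here. All 9 are reported, and from each list the counts and up to 2 genes a direction with the greatest change among those called are named, with the 2 genes of nearest pattern per member considered. Alternatives were other scalings (median centring, quantile, totals without Gm26917), filters (none, 10 CPM), pseudocounts (0.1 and 1 CPM), no variance trend, a replicate block, the compared groups alone, voom and leaving out each library.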

Additional observations from a re-analysis of the deposited data

Results flagged for a closer look

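The results below were picked out because the difference between siOct4 and siNcor1 itself changed from day 3 to day 6 in the limma interaction test over all genes (adjusted p under 0.05). Each value is the log2 difference at day 6 minus that at day 3, and of each surrounding list at most the 2 genes a direction with the greatest change are given. Among the 9 AP-1 and stress bZIP genes this was Fosl2 alone, at −1.23. Of 3 lower and 1 higher partners of MAFF these were Bach1 at −0.997, Nfe2l2 at −0.80 and Nfe2l3 at 0.86, and of the stress bZIP factors Xbp1 at −0.64 and Atf4 at 0.54. Upstream kinases were on both sides, with Mapk11 at 1.44, Map2k6 at 1.40 and Mapk3 at −0.79. The cofactors Mkl1 and Elk3 changed by −0.99 and −0.78. The early genes Ptgs2 and Klf6 changed by −1.60 and −1.48, and the phosphatases Dusp1 and Dusp10 by −1.31 and −1.26. Among AP-1 targets Ccl2 and Il11 had the greatest changes, −2.39 and −1.97. The heat-shock genes Hspb1 and Bag3 changed by −1.27 and −1.01. Fosl2, Bach1, Mkl1, Ptgs2, Klf6, Dusp1, Ccl2 and Bag3 kept the call in each of the 8 fits that left out a library, and the others lost it in at least 1, Atf4 in 7.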

How the results depend on the processing

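The calls of Fosl2 (between siRNAs at day 6, over time in siOct4, and the change between days) passed under each alternative run and without any library (the compared groups alone cannot give the change), as did the rise of Atf3 in siOct4, except that Atf3 was removed by the filter of 10 CPM. At day 3 no alternative called any of the 9 genes. The fall of Maff in siOct4 did not pass under median centring, quantile scaling, totals without Gm26917, no filter or the compared groups alone (adjusted p = 0.0708, 0.0509, 0.129, 0.0502 and 0.0725). Genes called at day 3 numbered 43 without the variance trend and 81 at 10 CPM, against 148. The number of the 9 genes whose siRNA difference changed between days was 2 under median centring, quantile scaling and totals without Gm26917. This stood beside 22.3%, 22.8% and 22.4% of all genes, and Atf3 was added (adjusted p = 0.0479, 0.0491 and 0.0460). Over time in siNcor1, 5 of the 9 genes passed when only the compared groups were fitted, beside 43.8% of all genes. Fosl2, Junb and Jund were added (adjusted p = 0.0492, 0.0312 and 0.0254). Junb also passed there under quantile scaling and totals without Gm26917 (adjusted p = 0.0174 and 0.0395).

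The labels share only a replicate number, and deviations of equally numbered libraries correlated at −0.04 to 0.28. With a replicate block, 4 of the 9 genes passed over time in siNcor1 (Junb and Jund added, adjusted p = 0.0409 and 0.0118), beside 37.6% of all genes. In the change between days 3 passed (Fosl1 and Junb added, adjusted p = 0.0320 and 0.0400), beside 24.5% of all genes.

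Without a library each in turn, genes called ranged from 3 to 375 at day 3, 1398 to 4669 at day 6, 2360 to 5954 over time in siNcor1, 5397 to 7374 in siOct4 and 1009 to 3667 for the change between days. Of the 9 genes, 0 passed at day 3, 1 to 5 at day 6, 0 to 4 over time in siNcor1, 2 to 4 in siOct4 and 1 to 4 for the change. The high end at day 6 came without replicate 1 of siOct4 at day 6, and the low end in siNcor1 without replicate 1 of siNcor1 at day 6.

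Signs turned only for differences that had not passed. By setting, these were Fosb at day 3 (0.0027 by median centring, 0.075 by quantile scaling and 0.0063 by voom), Fos at day 3 (0.0050 by quantile scaling), Fos at day 6 (0.0041 and 0.061 by median centring and quantile scaling), the change for Fos (0.014, 0.056 and 0.043 by median centring, quantile scaling and totals without Gm26917), and, by quantile scaling, Ncor1 at day 6 (0.0062), Fosb over time in siNcor1 (−0.17) and Junb in siOct4 (0.071). Fosl1 over time in siOct4 was −0.00083 by voom. Without single libraries, ranges that crossed 0 at day 3 were −0.11 to 0.073 for Fos, −0.12 to 0.11 for Fosb, −0.17 to 0.025 for Jun, −0.61 to 0.28 for Jund, −0.16 to 0.028 for Klf4, −0.11 to 0.0044 for Myc and −0.031 to 0.14 for Sox2. At day 6 they were −0.21 to 0.14 for Fos, −0.11 to 0.16 for Maff and −0.14 to 0.054 for Ncor1. Over time they were −0.0397 to 0.19 for Fosb and −0.24 to 0.028 for Maff in siNcor1, and −0.16 to 0.21 for Fosl1, −0.080 to 0.12 for Jun and −0.092 to 0.79 for Jund in siOct4. For the change they were −0.19 to 0.16 for Fos and −0.75 to 0.14 for Jund. Causes of these changes were not tested. With 2 replicates a group, and 13 to 29 reads for Fosb and 24 to 121 for Atf3, small changes of the low genes could not be seen.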

Other observations

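Replicate 1 lay above replicate 2 in all 4 groups for each of the 3 JUN genes, by 0.08 to 0.20 on the log2 scale for Jun, 0.04 to 0.33 for Junb and 0.25 to 0.89 for Jund, and for 0 of the other 6 genes. Over the 13866 tested genes 9.81% were on that side in all 4 groups and 7.31% on the opposite side. Jun and Jund have a single exon. Of the 280 tested protein-coding genes with 1 exon in every transcript, 33.6% lay higher in replicate 1 in all 4 groups and 5.36% lower. The JUN genes and this comparison were looked at after their values were seen, and no cause was tested.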
